A study of Sus scrofa with 13 samples.

Results

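Developmental transcription factors outside the HOX clusters were examined for their 5-hydroxymethylcytosine (5hmC) signal in pig mesenchymal stem cells. The members were the gene rows named for 11 families, which are the forkhead (FOX), SOX, T-box (TBX), GATA, PAX, LIM-homeobox (LHX), SIX-family, DLX, MSX, NKX and Iroquois (IRX) factors. This choice took 131 of the 27339 gene rows in the count tables. It went by gene symbol alone, but was made with earlier results of these data known. FOX gave 43 members, SOX 19, NKX 14, TBX 13, PAX and LHX 8 each, GATA, DLX, IRX and the SIX-family 6 each, and MSX 2.

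The cells were mesenchymal stem cells grown from the subcutaneous abdominal fat of female domestic pigs. All the pigs had been fed a diet with 2% cholesterol, and a coil placed in a renal artery 6 weeks into the diet had narrowed that artery. Fat was taken 3 weeks after the coil. Cultures expanded over several passages were then either preconditioned for 48 hours at 1% oxygen (hypoxia, 6 libraries) or grown at 20% oxygen (normoxia, 6 libraries). The sample titles carry the numbers 110, 16, 21, 33, 49 and 4, and there was a hypoxia and a normoxia library for every number. No library of cells from healthy pigs was analysed here. The labels do not say what a title number stands for, so the spread behind the p-values is one between libraries and may be technical.

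5hmC is made when TET enzymes oxidise methylated cytosine in DNA, and it is commonly found at active enhancers and over the bodies of transcribed genes. The factors of these families bind DNA through a forkhead, HMG-box, T-box, zinc-finger, paired or homeobox domain and set cell identity in the embryo. In cells that do not use them, many of their genes lie under Polycomb repression in regions with little DNA methylation. Adult stromal cells keep a subset in use, such as TBX, FOX and SIX-family factors that mark the body region a cell came from.

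The libraries held 263578 to 714002 reads in genes, which was 1.69 to 2.89% of their reads. Members held 1027 to 3448 reads per library. Levels are in CPM, edgeR's unit of reads relative to a library's gene reads after TMM scaling. They depend on gene length, so levels are not compared between genes. The reads come from DNA, so cell type markers could not check the labelled cell type as RNA would. In such a bulk preparation, fewer cells with 5hmC at a gene and less 5hmC per cell cannot be told apart. No library was left out.

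Most members carried few reads. Of the 131, 42 passed edgeR's filter on low counts, 86 had reads but did not pass, and 3 had no read in any library. The filter kept 13 FOX, 9 SOX, 7 TBX, 5 PAX, 3 SIX-family and 2 GATA members and 1 each of LHX, DLX and MSX, but 0 of 14 NKX and 0 of 6 IRX members. Reads were found in all 12 libraries for 75 members, and 24 members overlap another gene in the RefSeq annotation. The 3 members without a read were FOXI2, LHX3 and SOX2, the last a pluripotency and neural stem cell factor. A count of 0 over all gene reads allows up to 0.515 CPM (3 reads). For a single library it allows up to 4.20 CPM in the largest and 11.4 CPM in the smallest.

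Together the members took 0.436 ± 0.0286% of gene reads in hypoxia and 0.429 ± 0.0320% in normoxia (mean ± SD over 6 libraries each). In the number order 110, 16, 21, 33, 49 and 4, these shares were 0.432, 0.417, 0.430, 0.470, 0.468 and 0.397% in the hypoxia libraries and 0.423, 0.428, 0.390, 0.409, 0.444 and 0.483% in the normoxia libraries. The hypoxia library was higher in 4 of the 6 numbers, and the groups overlapped. As a share of all reads, the members took 0.0104 ± 0.00113% in hypoxia and 0.0107 ± 0.00223% in normoxia. On that scale the hypoxia library was higher in only 2 of the 6 numbers. FOX members took the largest share of gene reads, with 0.166 ± 0.00883% in hypoxia and 0.173 ± 0.0206% in normoxia. SOX members took 0.114 ± 0.0128% and 0.109 ± 0.0122% of gene reads in those groups.

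**Figure D1:**
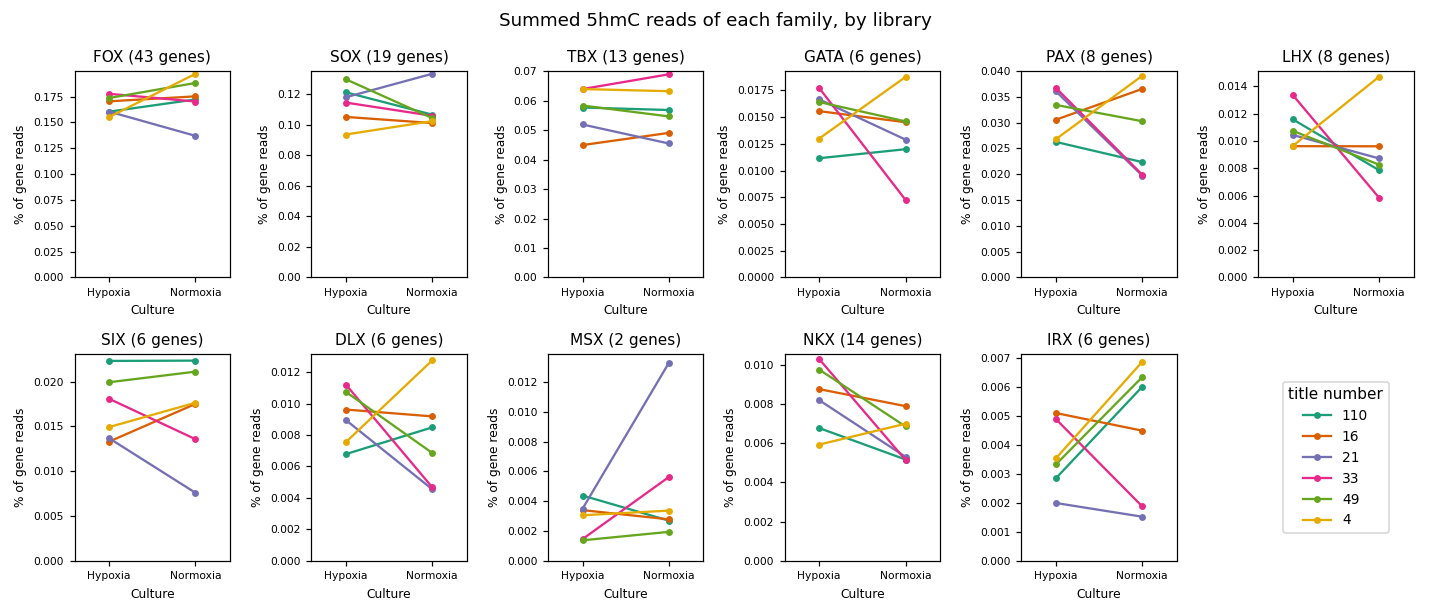
Summed 5hmC reads of each family as a percentage of gene reads, in 1 panel per family with hypoxia left of normoxia. Each point is a library and each line joins the libraries of a title number. The groups overlap in every family, and the MSX panel has 1 high point, normoxia 21 at 0.0133%.

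The families differed little between the oxygen levels. The log2 ratio of the group means was -0.06 for FOX, 0.06 for SOX, 0.01 for TBX and 0.04 for the SIX-family. It was 0.18 for GATA and for PAX, 0.25 for LHX and 0.24 for DLX. The NKX members, none of which passed the filter, had 0.00830 ± 0.00169% of gene reads in hypoxia and 0.00623 ± 0.00118% in normoxia, a log2 ratio of 0.41. The hypoxia library was higher in 5 of 6 numbers for NKX, and also for LHX. Together the NKX members held only 14 to 57 reads per library. IRX members had a log2 ratio of -0.32 and MSX members one of -0.79. Normoxia 21 held the highest MSX share, with 0.0133% against 0.00137 to 0.00562% in every other library. By pair, the MSX log2 ratio was -1.93 in number 21 and -1.96 in number 33. Hypoxia was higher for MSX in 2 of 6 numbers.

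The direction was not the same in every pair. In number 33, GATA members took 0.0177% of gene reads in hypoxia and 0.00726% in normoxia, PAX members 0.0367% and 0.0199%, and LHX members 0.0134% and 0.00585%. In number 4, GATA members took 0.0130% in hypoxia and 0.0188% in normoxia, PAX members 0.0268% and 0.0391%, and LHX members 0.00963% and 0.0147%. DLX, NKX and IRX members also lay higher in hypoxia in number 33 and lower in number 4. The pairing of these 2 numbers is the least certain, since over all genes hypoxia 33 correlated more closely with normoxia 4 (0.504) than with normoxia 33 (0.416), and hypoxia 4 with normoxia 4 at only 0.135. The members that did not pass the filter held 1864 reads in the hypoxia libraries and 1873 in the normoxia libraries, 14.7% of all member reads.

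The first comparison asked which members gained or lost 5hmC reads in hypoxia. None passed the test. Of the 42 tested members, 0 had a Benjamini-Hochberg adjusted p below 0.05 in edgeR's quasi-likelihood test over all 11868 tested genes, of which 0% were called, and the smallest adjusted p among members was 1.00. With the title number as a block, 0 of 42 were called against 0.0337% of all tested genes, and the smallest adjusted p was 0.611. At an unadjusted p below 0.05, 1 member passed without the block (2.69% of all tested genes did) and 3 passed with it (7.05% of all). Hypoxia was higher in 6 of 6 numbers for 3 members, against 1.74% of all tested genes, and lower in 6 of 6 for 0 members, against 2.55%. The groups did not overlap for 0 members, against 0.101% of all genes.

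The log2 fold change was above 0 for 24 of the 42 members and below 0 for 18, while 44.4% of all tested genes were above 0. The members' median was 0.03, and that of all tested genes was -0.04. With the block, 27 were above 0 and 15 below, with medians of 0.05 for members and -0.02 for all genes. When the counts were scaled by library size alone, 28 members were above 0 and 14 below, with medians of 0.07 and 0.01. The excess above 0 was not kept in every setting. Without normoxia 21, and likewise without normoxia 33, 22 members were above 0 and 22 below. In sequencing lane 7 alone 24 were above 0 and 14 below, and in lane 8 alone 23 and 31. Over 18 leave-outs the members' median ran from -0.00749 to 0.15.

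**Figure D2:**
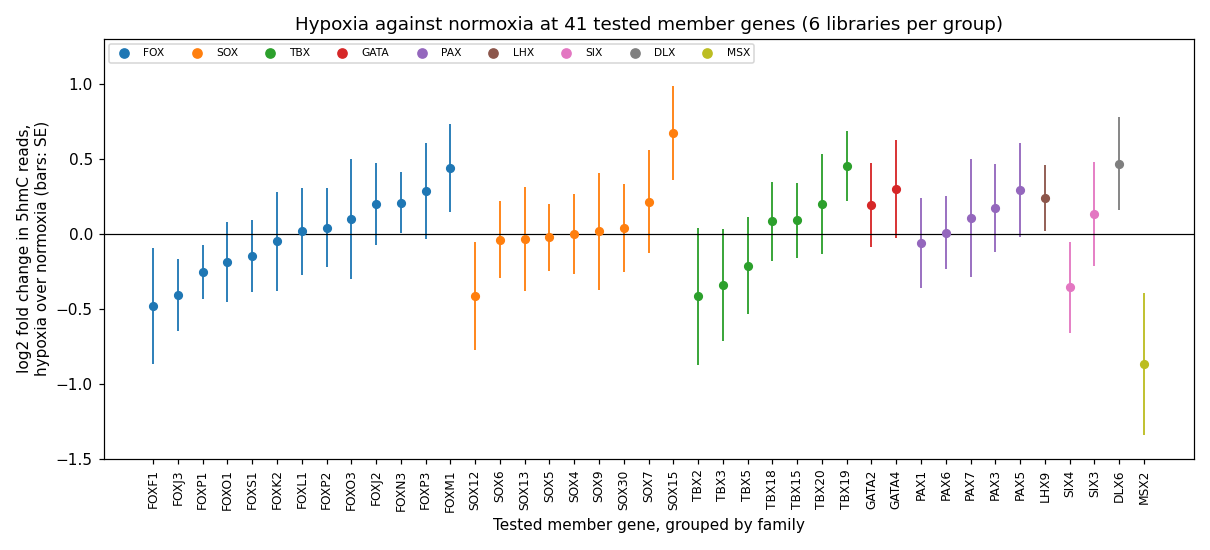
Log2 fold change of 41 tested members in hypoxia over normoxia from edgeR without the block, with bars of 1 standard error (SE), coloured and grouped by family. Of these 24 lie above 0 and 17 below, and the bars of 29 cross 0.

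SOX15 had the smallest p among the 42 tested members. It is a SOX factor of muscle progenitors and placenta in the mouse. It held 26.1 to 80.2 CPM in the hypoxia libraries (median 45.7) and 16.7 to 46.3 CPM in the normoxia libraries (median 32.6). The hypoxia library was higher in all 6 numbers, by most in number 33 with 80.2 CPM in hypoxia and 32.2 CPM in normoxia, but the groups overlapped. The log2 fold change was 0.67 ± 0.311 (SE), with an unadjusted edgeR p of 0.0417 and an adjusted p of 1.00. With the block it was 0.66 ± 0.258, with an adjusted p of 0.611. These values rest on 6 to 46 reads per library. SOX15 overlaps MPDU1 in the RefSeq annotation, by whole gene span. The feature type counted was not given, so whether their counts share any reads cannot be told. The counts of the 2 genes were not alike, as SOX15 was highest in number 33 and MPDU1 in number 49.

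TBX19, the T-box factor that switches on the pro-opiomelanocortin gene in the pituitary, held 89.4 to 141 CPM in hypoxia (median 102) and 59.4 to 131 CPM in normoxia (median 74.7). It was higher in hypoxia in all 6 numbers, and only normoxia 21 among the normoxia libraries reached the hypoxia range. The log2 fold change was 0.45 ± 0.234, and 0.46 ± 0.196 with the block, where the adjusted p was 0.655. FOXM1, which drives genes of mitosis, was also a tested member higher in all 6 numbers, with 31.0 ± 5.34 CPM in hypoxia and 22.8 ± 8.43 CPM in normoxia (mean ± SD, 6 libraries each). In number 16 its libraries were close, with 35.5 CPM in hypoxia and 33.7 CPM in normoxia, while in number 33 they held 38.3 and 14.9 CPM in those groups. Its log2 fold change was 0.44 ± 0.292, and it passed neither fit.

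MSX2, a homeobox factor of skull bone and limb formation, had the most negative fold change among the 42 tested members. It held 9.62 to 41.4 CPM in hypoxia (median 28.4) and 17.5 to 144 CPM in normoxia (median 26.4). The medians were nearly equal, and the normoxia mean of 49.7 ± 48.3 CPM against 25.2 ± 12.6 CPM in hypoxia was carried by normoxia 21. The log2 fold change was -0.87 ± 0.473, and -0.76 ± 0.350 with the block (adjusted p 0.691). Without normoxia 21 it was -0.28, and hypoxia was higher in 3 of 6 numbers. Number 21 held 29.1 CPM in hypoxia and 144 CPM in normoxia, and number 33 held 10.5 and 59.4 CPM in those groups.

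**Figure D3:**
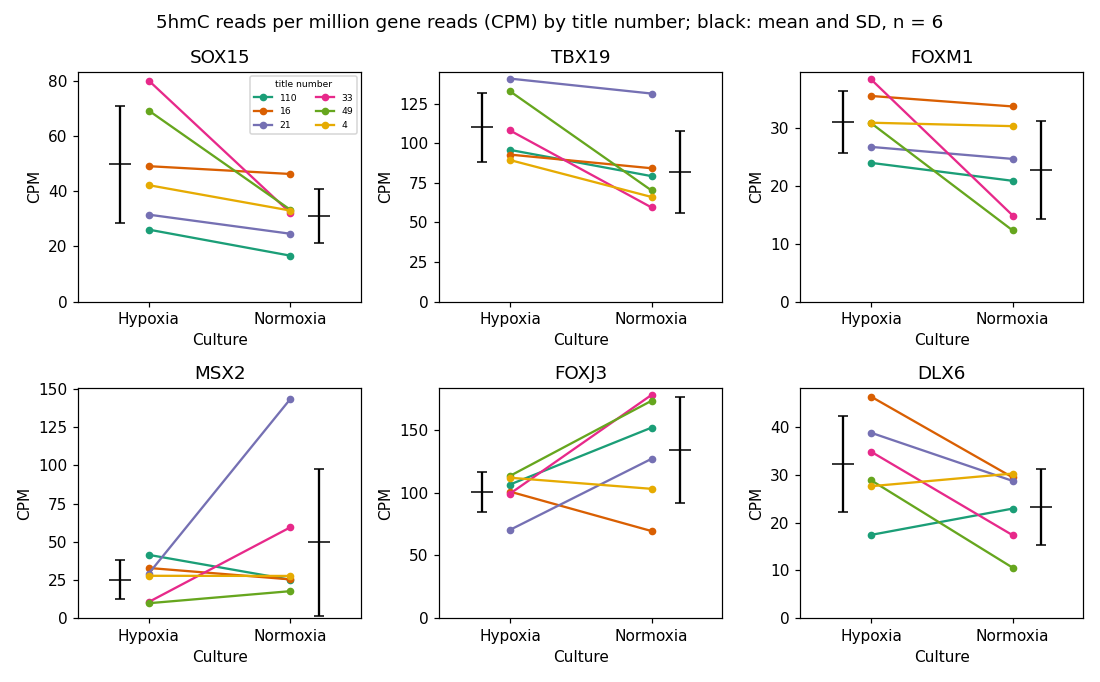
CPM of SOX15, TBX19, FOXM1, MSX2, FOXJ3 and DLX6 in each library, with hypoxia left of normoxia, a line joining the libraries of a title number and black bars for each group's mean and SD. SOX15, TBX19 and FOXM1 are higher in hypoxia along all 6 lines, while the MSX2 lines run both ways and normoxia 21 stands at 144 CPM.

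A list of 25 members that act in stromal, bone, cartilage or fat lineages was described as a group. Its summed share of gene reads was 0.199 ± 0.0190% in hypoxia and 0.210 ± 0.0120% in normoxia, a log2 ratio of -0.08. In the number order used above, the shares were 0.223, 0.184, 0.195, 0.207, 0.212 and 0.171% in hypoxia and 0.215, 0.189, 0.216, 0.213, 0.222 and 0.203% in normoxia. Hypoxia was thus lower in 5 of 6 numbers, with overlapping groups. Of its 14 tested members 6 had fold changes above 0 and 8 below, with a median of -0.03 beside -0.04 for all tested genes. With the title number as a block, 8 were above 0 and 6 below, with a median of 0.02 beside -0.02.

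Among the other FOX members, FOXP1 is a forkhead repressor of heart, lung and lymphocyte development. It held 408 to 540 CPM in hypoxia (median 422) and 411 to 619 CPM in normoxia (median 577), and was lower in hypoxia in 5 of 6 numbers, with a log2 fold change of -0.26 ± 0.179. FOXJ3 had the smallest p of the family, with 100.5 ± 15.8 CPM in hypoxia, 134 ± 42.5 CPM in normoxia and a log2 fold change of -0.41 ± 0.239. FOXO1 and FOXO3, forkhead factors held out of the nucleus by insulin signalling, had log2 fold changes of -0.19 ± 0.265 and 0.10 ± 0.400. FOXC1 and FOXC2, also on the list of stromal lineage factors, act in mesoderm and vessel formation and did not pass the filter. FOXC1 had 46 reads in the hypoxia libraries and 63 in the normoxia libraries, and FOXC2 37 and 40 in those groups.

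In the SOX family the chondrocyte factors showed no difference between the groups beyond the spread. SOX9, which starts cartilage formation, held 37.4 ± 16.5 CPM in hypoxia and 38.2 ± 24.5 CPM in normoxia, a log2 fold change of 0.02 ± 0.389. SOX5 and SOX6, its partners in cartilage, held 389 ± 91.8 and 385 ± 63.9 CPM in hypoxia, and 396 ± 125 and 398 ± 194 CPM in normoxia. Their log2 fold changes were -0.02 ± 0.224 and -0.04 ± 0.257. The SOX6 normoxia libraries spread from 168 to 755 CPM, while the hypoxia libraries stayed between 308 and 466 CPM.

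T-box members with a part in fat, limb and body wall mesenchyme likewise differed by less than their spread in the fit without the block. TBX15, a factor of limb and trunk mesenchyme and of adipocyte types, held 83.6 ± 26.2 CPM in hypoxia and 78.4 ± 19.8 CPM in normoxia, a log2 fold change of 0.09 ± 0.250. TBX18, of the epicardium and ureter mesenchyme, had a log2 fold change of 0.08 ± 0.264. TBX5, of the heart and forelimb, had one of -0.21 ± 0.324 and was lower in hypoxia in 5 of 6 numbers. TBX3, a repressor active in limb and mammary development, held 153 ± 81.0 CPM in hypoxia and 195 ± 139 CPM in normoxia, with a log2 fold change of -0.34 ± 0.373.

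The GATA, PAX and LHX members that passed the filter mostly had fold changes above 0, and all were within 2 SE of 0. GATA2, which holds preadipocytes undifferentiated in the mouse and acts in blood stem cells, held 76.6 ± 17.2 CPM in hypoxia and 67.4 ± 26.2 CPM in normoxia, a log2 fold change of 0.19 ± 0.278. GATA4, a heart and endoderm factor, had a log2 fold change of 0.30 ± 0.327 and was higher in hypoxia in 5 of 6 numbers. GATA3 and GATA6 did not pass the filter, with 46 and 35 reads in hypoxia and 45 and 39 in normoxia. PAX6, the eye and islet factor, had a log2 fold change of 0.01 ± 0.241, PAX5, of B cells, one of 0.29 ± 0.313, and PAX3, of muscle precursors and neural crest, one of 0.17 ± 0.295. LHX9, a factor of the gonad and limb, held 69.6 ± 7.26 CPM in hypoxia and 58.6 ± 10.7 CPM in normoxia, a log2 fold change of 0.24 ± 0.219.

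The SIX-family and DLX members were also without a call. SIX4, a muscle regulator, had a log2 fold change of -0.36 ± 0.303 and was lower in hypoxia in 5 of 6 numbers. DLX6, of the craniofacial skeleton and limb, held 17.4 to 46.4 CPM in hypoxia (median 31.9) and 10.5 to 30.3 CPM in normoxia (median 25.8). Its log2 fold change was 0.47 ± 0.312, and it was higher in hypoxia in 4 of 6 numbers. DLX5, its neighbour in the genome and a bone-forming factor, had only 5 reads in hypoxia and 2 in normoxia, and DLX3 had 23 and 32. Of the untested mesenchymal members, SIX2 had 28 reads in hypoxia and 21 in normoxia, MSX1 9 and 7, LHX8 13 and 13, and IRX5 12 and 10.

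IRX3, which in humans is linked to the obesity region of FTO and to energy use by adipocytes, had 32 reads in hypoxia and 60 in normoxia and was lower in hypoxia in 4 of 6 numbers. NKX2-2, a factor of the ventral neural tube and islets, had 53 reads in hypoxia and 41 in normoxia. When the filter was dropped, edgeR tested 128 members and called 0, as it did for 0% of all 25337 genes. Of these members, 3 had an unadjusted p below 0.05, against 2.74% of all genes. They were SOX15, FOXJ1 and PAX4, the last 2 chosen for mention after their values were seen. PAX4, of the insulin-producing beta cell, had the smallest p among the 128 members in that fit (0.00733, against 0.0344 for SOX15). It had 67 reads in hypoxia and 30 in normoxia and was higher in hypoxia in 6 of 6 numbers, and its log2 fold change was 1.11 ± 0.389. FOXJ1, of ciliated cells, had 0 reads in hypoxia and 4 in normoxia.

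In the RefSeq gene order, 28 members lay beside another member with no other protein-coding gene between them, in 13 groups. SIX2, with 28 reads in hypoxia and 21 in normoxia, neighboured SIX3, and PAX1 neighboured NKX2-2 and NKX2-4, which had 3 reads in hypoxia and 0 in normoxia. DLX1 and DLX2, forebrain factors and another such pair, had 51 and 39 reads in hypoxia and 56 and 44 in normoxia.

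A second comparison asked how far the members differed between title numbers, with the oxygen level as a term in the fit. Here 7 of 42 members, or 16.7%, had a Benjamini-Hochberg adjusted p below 0.05 in edgeR's quasi-likelihood test, against 12.8% of all 11868 tested genes. The share was near that of all genes, and the median log2 range between the highest and lowest number was 1.11 for members and 1.04 for all genes. Without the filter, 11 of 128 members were called, against 9.09% of 25337 genes. The 7 were 3 of 13 FOX, 2 of 7 TBX, 1 of 9 SOX and 1 of 3 SIX-family members, and 0 of the 10 tested members of the other families.

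TBX3 had the smallest p of the members. In the number order 110, 16, 21, 33, 49 and 4 it held 118, 68.2, 102, 202, 135 and 291 CPM in the hypoxia libraries, and 115, 77.9, 103, 453, 200 and 219 CPM in the normoxia libraries. Numbers 33 and 4 were high and number 16 low at both oxygen levels. The fitted log2 range from number 33 down to number 16 was 2.12 (edgeR adjusted p 0.000313). TBX2, a T-box repressor closely related to TBX3, held 10.9, 13.6, 9.71, 73.2, 23.1 and 37.4 CPM in hypoxia in the same order, and 33.4, 21.0, 8.21, 49.5, 33.3 and 77.1 CPM in normoxia. Its highest number was also 33, its lowest was 21, and its log2 range was 2.74 (adjusted p 0.00443). The TBX2 values rest on 2 to 56 reads per library, with 4 in hypoxia 21 and 2 in normoxia 21. Neither gene was called by oxygen level. The log2 fold change of TBX2 was -0.42 ± 0.455 without the block, and it was -0.0383 without normoxia 4 and -0.99 without hypoxia 33. With the block and all libraries, it was -0.50 ± 0.301 for TBX2 and -0.27 ± 0.201 for TBX3 (edgeR adjusted p 0.785 and 0.856).

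FOXF1, a forkhead factor of lung and gut mesenchyme, held 97.9, 68.2, 80.1, 206, 152 and 164 CPM in hypoxia and 108, 94.7, 32.8, 270, 193 and 365 CPM in normoxia, in the same number order. Numbers 33, 49 and 4 lay above numbers 110, 16 and 21 at both oxygen levels. Number 21 had 33 FOXF1 reads in hypoxia and 8 in normoxia. The log2 range from number 4 down to number 21 was 2.04 (edgeR adjusted p 0.000532), while the log2 fold change for hypoxia was -0.48 ± 0.385. That fold change was -0.13 without normoxia 4 and -0.69 without hypoxia 33. With the block and all libraries it was -0.36 ± 0.210 (edgeR adjusted p 0.778). FOXF1 overlaps MTHFSD, a gene with a folate enzyme domain. MTHFSD held 84.9, 40.9, 38.8, 162, 133 and 109 CPM in hypoxia and 108, 73.7, 28.7, 215, 165 and 239 CPM in normoxia. Its high and low numbers were close to those of FOXF1, and its log2 range was 2.37 (adjusted p 0.000193). The overlap is one of whole gene spans, and the feature type counted was not given. Whether the counts of the 2 genes share any reads therefore cannot be told. FOXC2, the neighbour of FOXF1 that also overlaps MTHFSD, had too few reads to test.

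SIX3, a forebrain and eye factor, held 122, 57.3, 43.7, 59.2, 82.7 and 50.4 CPM in hypoxia and 125, 58.9, 24.6, 24.8, 82.4 and 53.7 CPM in normoxia. Number 110 was the highest at both oxygen levels. The log2 range from number 110 down to number 21 was 1.81 (edgeR adjusted p 0.00978), and the call was lost without number 110 (adjusted p 0.202). Number 21 had 18 SIX3 reads in hypoxia and 6 in normoxia. SIX3 overlaps LOC110260022, which held 178 CPM in hypoxia and 179 CPM in normoxia in number 110, and 9.75 to 78.9 CPM in hypoxia and 23.4 to 63.1 CPM in normoxia in the other numbers. The log2 range of LOC110260022 was 3.41 (adjusted p 7.83e-07).

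**Figure D4:**
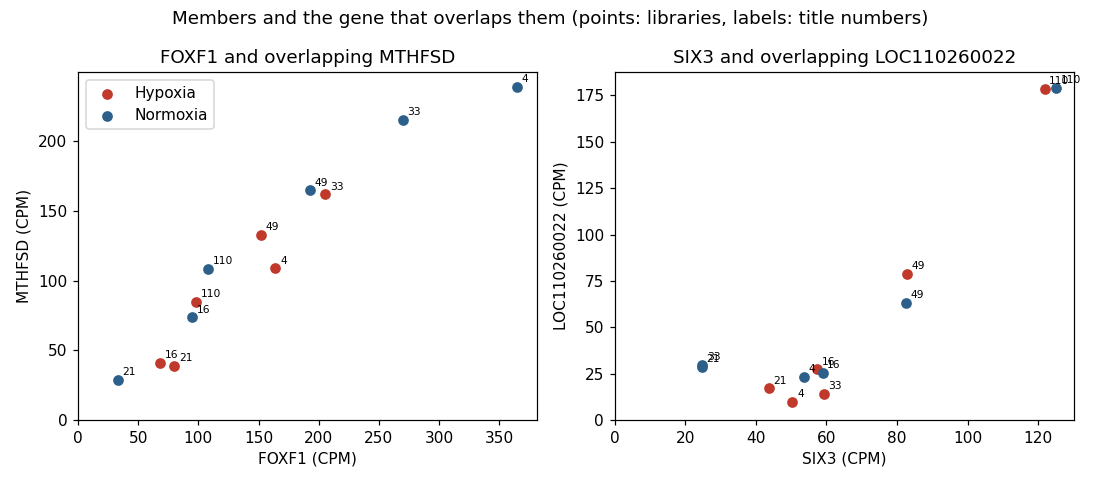
CPM of the overlapping genes MTHFSD and LOC110260022 (vertical axes) against that of FOXF1 and SIX3 (horizontal axes). Each point is a library, coloured by oxygen level and labelled with its title number. FOXF1 and MTHFSD are high in numbers 33, 49 and 4, and both SIX3 and LOC110260022 are highest in number 110.

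The calls of the other 3 members were each lost on leaving out at least 1 number. FOXO3 held 23.9, 79.2, 43.7, 103, 30.8 and 26.0 CPM in hypoxia and 29.2, 73.7, 8.21, 71.8, 56.1 and 38.5 CPM in normoxia, with a log2 range of 1.72 from number 33 down to number 110 (edgeR adjusted p 0.0176, and 0.133 without number 33). Numbers 16 and 33 were the high ones for FOXO3 at both oxygen levels. SOX9 held 58.8, 21.8, 48.5, 17.4, 30.8 and 47.1 CPM in hypoxia and 75.0, 42.1, 57.5, 12.4, 22.8 and 19.3 CPM in normoxia. Numbers 110 and 21 were high for SOX9 and number 33 low. Its log2 range was 2.13 (adjusted p 0.0346), and the call was lost without number 110 (0.204) or number 33 (0.175), and with scaling to all reads in place of gene reads (0.0993). FOXJ2 held 115, 115, 165, 68.0, 169 and 56.9 CPM in hypoxia and 100.1, 114, 103, 71.8, 133 and 75.7 CPM in normoxia. Its log2 range was 1.17 (adjusted p 0.0400), and the call was lost without number 33 (0.116), 49 (0.151) or 4 (0.0804), with scaling to all reads (0.111) and within lane 7 (0.232). PAX1, of the vertebral column, lay just outside the threshold with an adjusted p of 0.0510. It was called with scaling to all reads (0.0250), with no filter (0.0467), at a mean count of at least 20 (0.0451), without number 21 (0.0476) and without number 4 (0.0337).

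**Figure D5:**
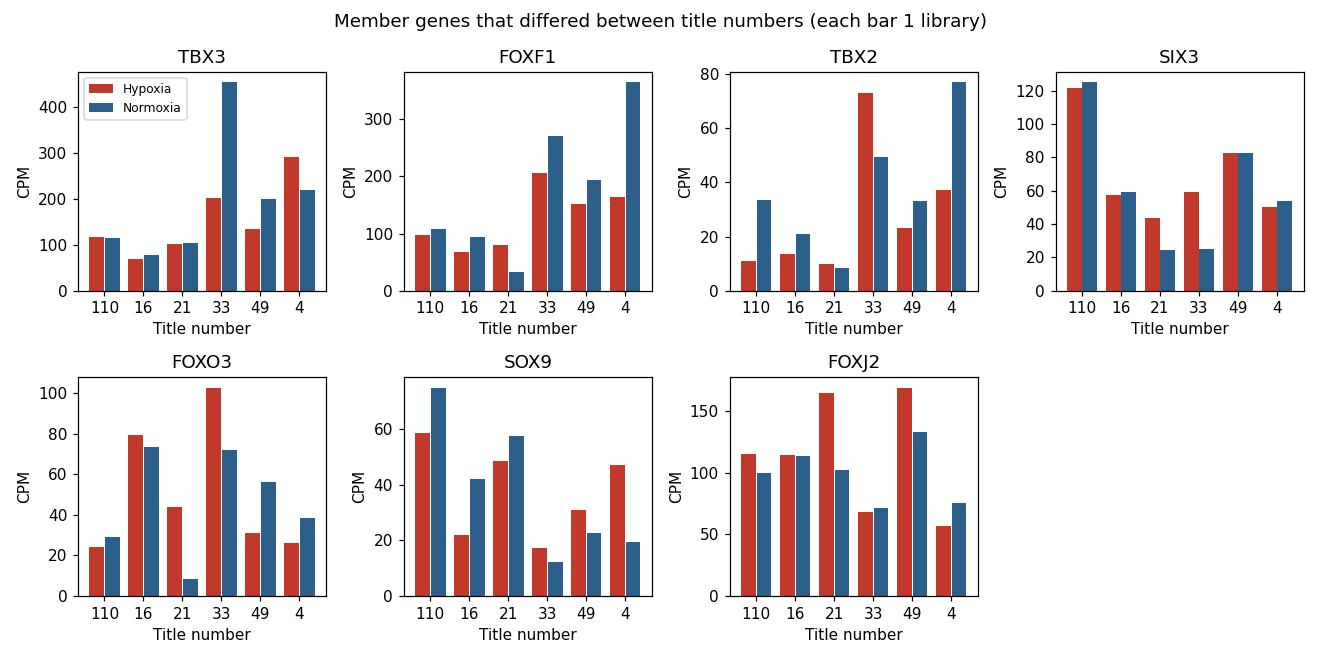
CPM of the 7 members called between title numbers, with 1 bar per library and the hypoxia bar left of the normoxia bar within each number. TBX3 and TBX2 are high in numbers 33 and 4, FOXF1 in numbers 33, 49 and 4, and SIX3 in number 110.

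The title numbers were split over 2 sequencing lanes. Numbers 110, 16, 21 and 33 ran on lane 7, and numbers 49 and 4 on lane 8. Within lane 7 alone, 5 of the 38 members tested were called between numbers, or 13.2%, against 7.12% of all genes tested there. They were FOXF1, FOXO3, SIX3, SOX9 and TBX3, and TBX2 did not pass the filter there. For hypoxia against normoxia, both lanes held both groups, and 0 members were called in either lane alone.

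Genes from other lists were set beside the members. Among 37 tested of 79 other developmental transcription factors with rows, 15 had fold changes above 0 and 22 below, with a median of -0.04. With the block 18 were above 0 and 19 below. Between the oxygen levels edgeR called 0 of the 37. TFAP2A, a neural crest and skin factor, had the smallest p of that list. It was lower in hypoxia in 6 of 6 numbers, with 27.7 ± 12.3 CPM in hypoxia and 54.7 ± 33.4 CPM in normoxia. Its log2 fold change was -0.99 ± 0.413 (edgeR unadjusted p 0.0259, adjusted p 1.00, and adjusted p 0.308 with the block). NR2F2, a nuclear receptor of vein and mesenchyme identity, had a log2 fold change of -0.51 ± 0.289.

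Between title numbers, 7 of these 37 were called, or 18.9%, beside 12.8% of all genes. Among them were SALL1, TFAP2A, OSR1, SNAI2, MEOX1 and GLI1. SALL1, a kidney and limb zinc-finger factor, held 13.1, 27.3, 21.8, 87.1, 30.8 and 52.0 CPM in hypoxia in the number order 110, 16, 21, 33, 49 and 4, and 14.6, 44.2, 8.21, 114, 26.3 and 103 CPM in normoxia. Numbers 33 and 4 were the highest for SALL1, as they were for TBX3, and its log2 range was 2.84 (edgeR adjusted p 0.000161). The log2 ranges of the other 5 named genes were 1.45 to 2.85.

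The subunits of the Polycomb complexes, which repress many genes of these families, gave 23 tested of 32. Of these 9 had fold changes above 0 and 14 below, 0 were called between oxygen levels, and CBX2 and PHF1 were called between numbers (edgeR adjusted p 0.0227 and 0.0456). The smallest p for oxygen were those of PCGF6, with a log2 fold change of -0.61 ± 0.292, and EED, with -0.60 ± 0.338.

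Markers of other cell types that such a culture could hold were also counted, for all of which edgeR called 0 between oxygen levels. The stromal markers took 0.116 ± 0.0129% of gene reads in hypoxia and 0.127 ± 0.0224% in normoxia, and the muscle and pericyte markers 0.0184 ± 0.00504% in hypoxia and 0.0232 ± 0.00929% in normoxia, both lower in hypoxia in 5 of 6 numbers. Endothelial markers took 0.0550 ± 0.00492% in hypoxia and 0.0491 ± 0.00825% in normoxia, and were higher in hypoxia in 5 of 6 numbers. Immune markers had 0.0693 ± 0.00314% in hypoxia and 0.0607 ± 0.00985% in normoxia, and neuronal markers 0.0363 ± 0.00321% in hypoxia and 0.0295 ± 0.00964% in normoxia. The smallest p among them was that of ROBO4, an endothelial guidance receptor, which was lower in hypoxia in 6 of 6 numbers with a log2 fold change of -0.82 ± 0.294 (edgeR unadjusted p 0.0108, adjusted p 0.568 with the block). The other markers with the smallest p of their lists had log2 fold changes of -0.45 (LUM), 0.37 (LEPR), 0.40 (CDH5), 0.40 (IKZF1), 0.37 (PTPRC), 0.27 (CDH1), -0.17 (ESRP2), 0.58 (SYN1), 0.48 (RBFOX1), -0.86 (ACTA2) and -0.16 (MYH11).

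Between numbers, edgeR called PDGFRA, LUM and ITGB1 among 11 tested of 12 stromal markers, ACTA2 among 3 tested of 8 muscle and pericyte markers, VWF among 8 tested of 9 endothelial markers and SPI1 among 7 tested of 9 immune markers. None of the 2 tested epithelial or 5 tested neuronal markers was called, and the neuronal marker GRIN1 had no read in any library. PDGFRA, the receptor that marks stromal progenitors, held 265 CPM in hypoxia and 513 CPM in normoxia in number 33, the number with the highest fitted level of TBX3, and 47.9 CPM in hypoxia and 85.5 CPM in normoxia in number 110. ACTA2, the smooth muscle actin gene, held 12.2 CPM in hypoxia and 22.3 CPM in normoxia in number 33, and 90.4 CPM in hypoxia and 168 CPM in normoxia in number 49.

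Averaged over both libraries of a number, the stromal markers took 0.0907% of gene reads in number 21, 0.127% in number 110 and 0.139% in number 33. The stromal list as a whole thus differed less between numbers 110 and 33 than PDGFRA did. The muscle and pericyte markers took 0.0113% in number 33 and 0.0277% in number 49. The part of these markers in the differences of the members between numbers was not tested.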

How the data were processed

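5hmC-bearing DNA was captured with an antibody and sequenced from both ends, per the labels' protocols. For each of 12 libraries the authors deposited raw counts by gene symbol and a peak list. Among the tools in the submitters' processing notes are HTSeq, Bowtie2 and Picard, besides MACS2 and edgeR. The build, annotation, feature type and strand setting were not given in the sources used here. Peak lists were not used, and 1 input sample was not analysed here.

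Members were found by symbol, and all 131 matched RefSeq genes of Sscrofa11.1 (26838 of 27339 gene rows did), which gave neighbours and overlaps only. The members and lists were chosen with earlier results of these data known. The test was edgeR 4.0.16 under R 4.3.3 (TMM, filterByExpr at a minimum count of 10 and total of 15, glmQLFit, glmQLFTest, Benjamini-Hochberg threshold 0.05), and DESeq2 1.42.0 was an alternative. CPM were computed here from the deposited counts. The scripts were tested on simulated data. Figures used Python 3.11.15, pandas 2.3.3 and matplotlib 3.10.9.

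Gene reads per library were 263578 to 714002, and 18 of the 42 tested members stayed under 50 reads in every library, so counting error limits their precision. Rows naming no gene were left out. All 66 pairs of libraries differed by more than sampling noise (lowest chi-square over its degrees of freedom, 1.26).

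The title numbers paired the libraries. Deviations from the group means correlated across genes at 0.370, 0.439, 0.333, 0.416, 0.478 and 0.135 for numbers 110, 16, 21, 33, 49 and 4, each above 0.1, although hypoxia 33 with normoxia 4 reached 0.504. edgeR's biological coefficient of variation fell to 0.209 with the block, against 0.304 without it.

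Members were named where they had the highest CPM or smallest p of a family, an unadjusted p below 0.05, 1 direction in all 6 numbers, a place on the stromal lineage list, a neighbouring member, or 1 of the 8 smallest p between numbers. Of other lists, the 2 smallest p and called genes were named. Alternatives were other scalings, filters and tools, the block, single lanes and leaving out libraries. Results for 2 genes are not reported here. The number test within lane 7 was added after seeing the data.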

Additional observations from a re-analysis of the deposited data

Results flagged for a closer look

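Among 56 groups of 6 libraries, 4 held a library whose distance from its nearest neighbour exceeded Dixon's 95% critical value for 6 values, and chance alone gives about 1 in 20. FOXJ3 had 70.4 CPM in hypoxia 21, against 99.3 to 114 CPM in the other hypoxia libraries. FOXO1 had 69.6 CPM in hypoxia 110, against 35.7 to 48.1 CPM in the others of that group. Normoxia 21, the library with the fewest gene reads, accounts for the other 2. In it MSX2 had 144 CPM against 17.5 to 59.4 CPM in the other normoxia libraries and TBX19 had 131 CPM against 59.4 to 84.2 CPM.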

How the results depend on the processing

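Between oxygen levels 0 members were called under all 28 settings, leave-outs, single lanes, DESeq2 and the replicate block included. Over all genes, pairing libraries by the replicate block gave 4 calls in place of 0, and leave-outs gave 0 to 12. Without the filter, the number test called 11 of 128 members in place of 7 of 42, against 9.09% of all genes in place of 12.8%. Leaving out a number gave 4 members (without number 33, against 7.52% of all genes) to 11 (without number 21, against 16.2%). The share of all genes thus moved in the same direction in these leave-outs. TBX3 and FOXF1 were called in all 13 settings of that test. Depth limits the 86 members below the filter and the 18 tested ones that stayed under 50 reads.

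Some fold changes turned sign, and the cause was not tested. With the replicate block SOX5 had 0.00117 and SOX6 0.0597. With library size scaling SOX5 had 0.0303 and SOX6 0.0277, and with all-read scaling PAX6 had -0.0240 and SOX6 0.0422. DESeq2 gave PAX6 -0.00733 and SOX9 -0.0113. Lane 7 alone gave FOXO1 0.00839, PAX1 0.21, SOX9 -0.35 and TBX18 -0.0231. Lane 8 alone gave FOXO3 -0.71, GATA2 -0.0144, GATA4 -0.56, PAX3 -0.22, PAX5 -0.0353, PAX6 -0.19, SIX3 -0.0125, SOX5 0.0180, SOX6 0.23 and TBX3 0.0513. Leave-outs spanned -0.27 to 0.29 for FOXO3, -0.00689 to 0.32 for GATA2, -0.19 to 0.25 for PAX1, -0.0120 to 0.35 for PAX3, -0.15 to 0.18 for PAX6, -0.10 to 0.45 for SIX3, -0.16 to 0.14 for SOX5, -0.18 to 0.24 for SOX6, -0.18 to 0.37 for SOX9, -0.0862 to 0.23 for TBX15, -0.0756 to 0.21 for TBX18, -0.60 to 0.0931 for TBX3 and -0.40 to 0.0902 for TBX5. The planned check of promoter composition was not run, since no sequence was used here.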
